A study of Mus musculus with 31 samples.

Results

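The genes described here are 10 markers of thalamic nuclei, 7 transcription factors (Lhx2, Lhx9, Gbx2, Tox, Tcf7l2, Rora and Prox1) and 3 calcium-binding proteins (Necab1, Calb2 and Calb1), out of 25497 genes quantified in bulk RNA of the mouse thalamus. The 10 genes were chosen on their values in these libraries, including their levels in the 4 groups and their correlations with one another, so those values are given as descriptions. Expression was measured in 31 adult mice at postnatal day 90, 1 library an animal. Maternal housing was either social isolation rearing (SIR) or control, which gave 7 male and 8 female SIR offspring and 8 male and 8 female control offspring. The labels give the mother's housing and the offspring's sex, and strain, litter and batch are not given there. Animals are treated as independent, although some may be littermates, so a p-value sets a difference only against the variation among these animals.

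The thalamus relays sensory and motor signals to the cortex and is divided into nuclei with separate inputs and targets. During development, homeodomain and HMG-box transcription factors set the thalamic territory and guide its axons, and many of them stay on in adult neurons of some nuclei and not others. Calcium-binding proteins of the EF-hand family divide adult thalamic neurons in a similar way: calretinin (Calb2) is known from midline nuclei, and calbindin (Calb1) from neurons that project widely to upper cortical layers. In bulk RNA, fewer cells of a type and less RNA per cell cannot be told apart, and the nuclei in a dissection can differ from animal to animal.

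The genes lie on chromosome 1 (Gbx2, ENSMUSG00000034486, Lhx9, ENSMUSG00000019230, and Prox1, ENSMUSG00000010175, all on the minus strand), chromosome 2 (Lhx2, ENSMUSG00000000247, plus), chromosome 4 (Calb1, ENSMUSG00000028222, plus, and Necab1, ENSMUSG00000040536, and Tox, ENSMUSG00000041272, minus), chromosome 8 (Calb2, ENSMUSG00000003657, minus), chromosome 9 (Rora, ENSMUSG00000032238, plus) and chromosome 19 (Tcf7l2, ENSMUSG00000024985, plus). RefSeq's promoter table for the build GRCm38.p6 held windows for 6 of the 10 genes. The 250 bases before the start are shown for Gbx2 and Lhx9, which tracked each other across libraries, for both listed starts of Lhx2, which divide that gene's counts, and for Rora, which ran opposite to Calb2. Capitals mark CG dinucleotides, a feature taken up only after none of 3 motifs searched was found in these windows, and each sequence reads 5′ to 3′ on the gene's strand.
Gbx2 (chr1:89931177-89931426, minus strand): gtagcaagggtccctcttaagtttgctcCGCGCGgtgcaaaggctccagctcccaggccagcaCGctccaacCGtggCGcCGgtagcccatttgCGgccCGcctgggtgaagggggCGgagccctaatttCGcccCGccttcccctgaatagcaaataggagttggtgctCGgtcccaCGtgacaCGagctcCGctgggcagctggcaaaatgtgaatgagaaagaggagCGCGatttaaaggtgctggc
Lhx9 (chr1:138842445-138842694, minus strand): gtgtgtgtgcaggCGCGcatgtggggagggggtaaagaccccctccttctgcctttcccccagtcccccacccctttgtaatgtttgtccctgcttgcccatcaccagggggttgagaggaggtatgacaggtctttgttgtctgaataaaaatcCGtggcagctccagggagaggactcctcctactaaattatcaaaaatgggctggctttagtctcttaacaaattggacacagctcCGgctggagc
Lhx2, upstream start (chr2:38339031-38339280, plus strand): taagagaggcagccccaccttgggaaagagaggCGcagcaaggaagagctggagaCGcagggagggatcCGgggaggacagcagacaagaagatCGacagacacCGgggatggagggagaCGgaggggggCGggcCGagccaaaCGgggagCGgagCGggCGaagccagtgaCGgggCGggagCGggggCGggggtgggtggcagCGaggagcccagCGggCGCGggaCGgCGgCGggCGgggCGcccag
Lhx2, downstream start (chr2:38351058-38351307, plus strand): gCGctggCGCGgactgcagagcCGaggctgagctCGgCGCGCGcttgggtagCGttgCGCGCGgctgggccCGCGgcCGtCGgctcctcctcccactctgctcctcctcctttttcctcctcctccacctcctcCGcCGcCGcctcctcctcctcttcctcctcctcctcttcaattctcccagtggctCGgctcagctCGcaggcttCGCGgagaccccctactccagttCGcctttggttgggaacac
Rora (chr9:68653536-68653785, plus strand): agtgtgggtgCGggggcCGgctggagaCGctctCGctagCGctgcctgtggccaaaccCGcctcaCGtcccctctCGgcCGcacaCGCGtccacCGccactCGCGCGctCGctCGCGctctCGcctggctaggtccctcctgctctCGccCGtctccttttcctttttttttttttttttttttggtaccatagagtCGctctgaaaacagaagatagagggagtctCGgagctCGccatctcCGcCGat

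The Rora window held 26 CG dinucleotides, the 2 Lhx2 windows held 25 and 24, and the Gbx2 window held 18, against a median of 6 over all 32851 promoters in the table. The Lhx9 window held 4. Over the 9 windows of the 6 genes the count ran from 4 to 30. None of the 9 windows, searched over their full 300 bases on both strands, held CTTTGA (letters bound by TCF/LEF factors, present in 16% of all promoters), TAATTA (a homeodomain core, 5.29%) or AGGTCA (a ROR half-site, 16.3%). No match says only that these letters are not in these windows.

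The listed starts fit the transcripts in use to different degrees. Transcripts that begin within 1000 bases of the Rora start carried 95.1% of Rora's estimated counts, and those near the Gbx2 start carried 62.7%. For Lhx2, 36.6% of counts came from transcripts near the upstream start and 62.6% from those near the downstream start. Only 17.1% of Lhx9 counts came from transcripts near the listed Lhx9 start, so that window does not cover the starts of the main Lhx9 transcripts.

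The shallowest library held 13004178 estimated counts, the median library 23281571 and the deepest 25741879. Of all genes, 14886 passed the filter on low counts, all 10 markers among them. Markers of thalamic neurons were present in all libraries: the vesicular glutamate transporter gene Slc17a6 had a median of 218 TPM (transcript abundance scaled for length and depth), and Prkcd, which marks relay nuclei, a median of 938 TPM. RNA known from tissue next to the thalamus varied widely between libraries, with the hypothalamic peptide gene Hcrt from 0.913 to 445.6 TPM and the choroid plexus gene Ttr from 0.0864 to 3220 TPM. The library labelled SIR female 5 went against its label. Its Y-linked Ddx3y stood at 41.6 CPM (counts scaled for depth but not for length), where the 15 other female libraries reached at most 0.0481 CPM and the 15 male libraries ran from 31.5 to 50.2 CPM. Some values that rest on the SIR females are therefore also given without it. Among them are the counts of non-overlapping ranges and the female fold changes of the markers past the threshold. All other values of SIR females include this library. The library numbers of all SIR animals lie below those of all controls, so housing and number range cannot be told apart.

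Per length, the markers spanned a wide range of levels. Calb2 was the most abundant with a median of 289 TPM over the 31 libraries, followed by Tcf7l2 at 263 TPM, Calb1 at 138 TPM, Rora at 136 TPM, Necab1 at 76.3 TPM, Gbx2 at 44.0 TPM, Prox1 at 30.4 TPM, Tox at 20.02 TPM, Lhx9 at 13.7 TPM and Lhx2 at 11.03 TPM. The ranges of neighbours in that order overlapped, except for Tcf7l2 (187.8 to 350.6 TPM) and Calb1 (75.3 to 184.0 TPM). The spread over libraries was widest for Necab1, with a coefficient of variation of 39.0% on the CPM scale, and narrowest for Tcf7l2 at 15.4% and Calb1 at 15.9%.

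**Figure D1:**
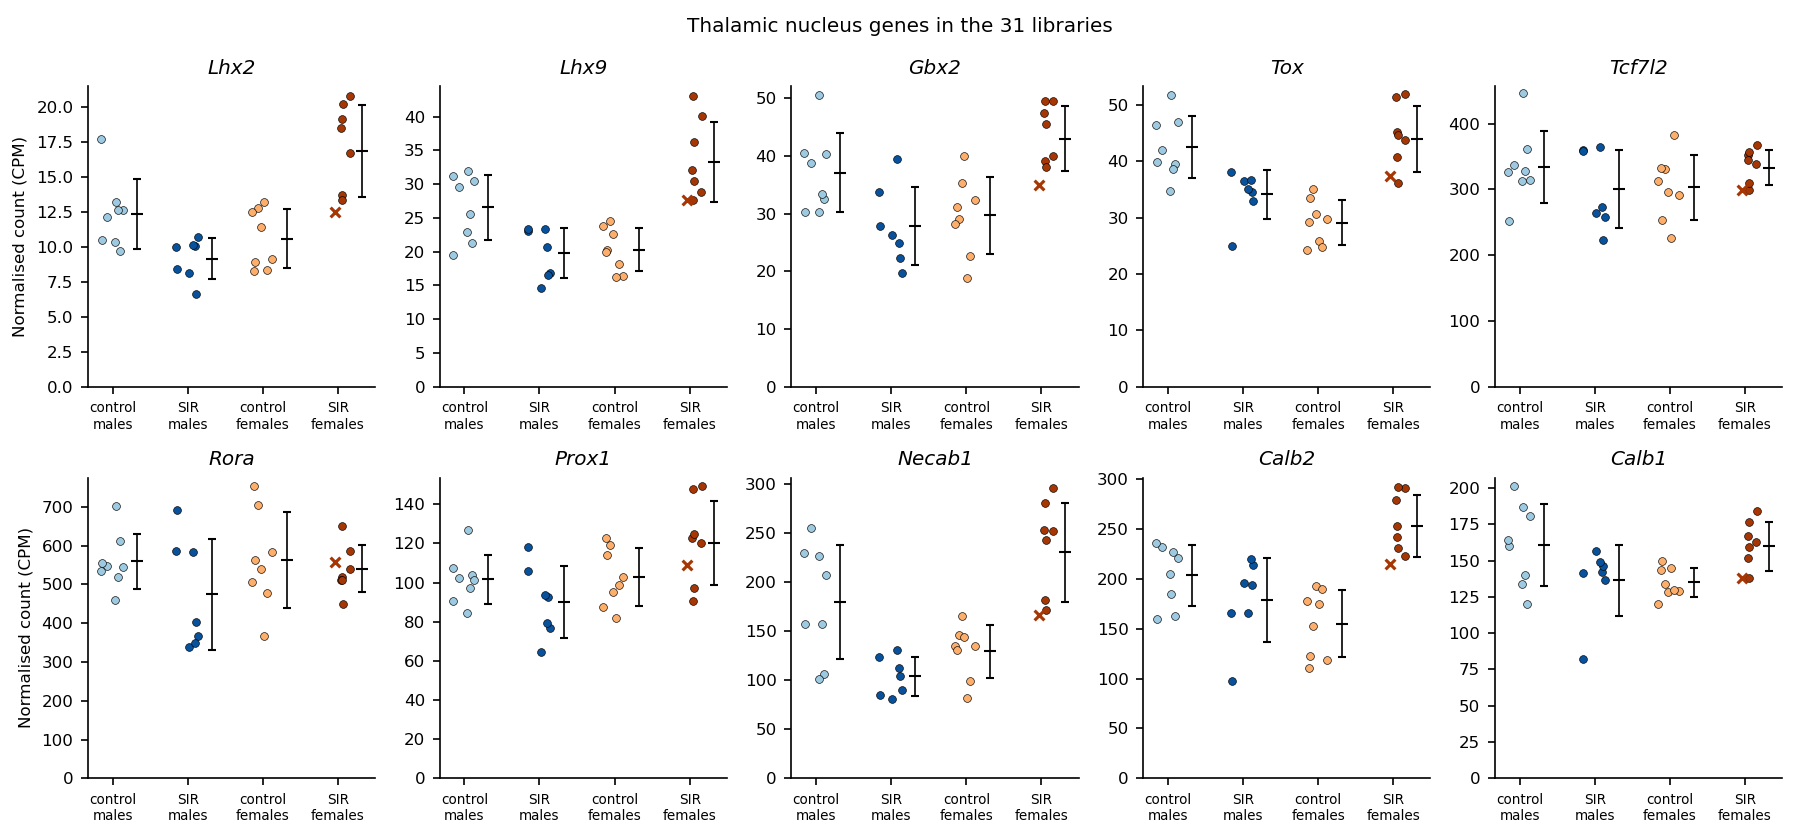
Normalised counts (CPM, vertical axis from 0) of the 10 genes in the 31 libraries, 1 point a library, grouped by housing and sex; the bar beside each group is its mean ± SD and the cross is the library labelled SIR female 5. The SIR females lie above the control females in Lhx9, Calb2, Necab1 and Tox with no overlap, while the groups are mixed in Rora and Tcf7l2.

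Lhx2 and Lhx9 encode LIM-homeodomain transcription factors of the early thalamus. Both were highest in the SIR females and low in the SIR males. Lhx2 ran from 12.5 to 20.8 CPM (median 17.6) in SIR females and from 8.25 to 13.2 CPM (median 10.3) in control females. In males the order was the other way: 6.64 to 10.7 CPM (median 9.99) with SIR and 9.71 to 17.7 CPM (median 12.4) in controls. All 8 SIR females lay above the median of the control females and all 7 SIR males lay below the median of the control males. Of the SIR females only the library labelled SIR female 5 lay within the range of the controls. The log2 fold change of SIR over control in the edgeR fit was 0.67 ± 0.13 (SE) in females and -0.43 ± 0.14 in males.

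Lhx9 followed the same course. It ran from 27.7 to 43.1 CPM (median 31.3) in SIR females and from 16.3 to 24.6 CPM (median 20.1) in control females, with no overlap. SIR males ran from 14.6 to 23.4 CPM (median 20.6) and control males from 19.5 to 31.96 CPM (median 27.6), with overlap. Its log2 fold change was 0.71 ± 0.12 in females and -0.43 ± 0.13 in males. The lowest SIR female was thus higher than the highest SIR male for Lhx9, as it was for Lhx2 and Necab1.

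Gbx2, a homeobox gene needed for the thalamus to form and send axons to the cortex, ran from 34.9 to 49.5 CPM (median 42.8) in SIR females and from 18.8 to 39.9 CPM (median 30.1) in control females. In SIR males it ran from 19.8 to 39.4 CPM (median 26.3), and in control males from 30.3 to 50.5 CPM (median 36.1). The ranges overlapped within each sex, with 5 of 8 SIR females above every control female and 5 of 7 SIR males below every control male. The log2 fold change was 0.53 ± 0.14 in females and -0.42 ± 0.14 in males.

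Tox, an HMG-box nuclear protein best known from developing T cells, ran from 36.1 to 51.9 CPM (median 44.2) in SIR females, above the 24.2 to 35.1 CPM (median 29.4) of all control females. SIR males ran from 24.99 to 38.1 CPM (median 35.1) and control males from 34.7 to 51.7 CPM (median 40.9). Control males also lay above most control females for this gene: 7 of 8 were above the highest control female. The log2 fold change of SIR over control was 0.59 ± 0.09 in females and -0.32 ± 0.09 in males.

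The SIR and control ranges of the remaining 3 transcription factors overlapped in both sexes. Tcf7l2, an HMG-box partner of beta-catenin in Wnt signalling that maintains thalamic neuron identity, had medians of 341 CPM in SIR females (299 to 367), 304 CPM in control females (226 to 383), 274 CPM in SIR males (223 to 365) and 327 CPM in control males (252 to 446). Rora, an orphan nuclear receptor high in sensory relay nuclei, had medians of 530.2 CPM in SIR females (448 to 651), 551 CPM in control females (366 to 755), 404 CPM in SIR males (338 to 693) and 546 CPM in control males (459.6 to 703). Among the SIR males, 4 libraries lay below every control male for Rora and 3 lay above the control median. Prox1, a homeodomain factor of neuronal fate, had medians of 121 CPM in SIR females (90.6 to 149), 101 CPM in control females (81.8 to 123), 92.6 CPM in SIR males (64.6 to 118) and 102 CPM in control males (84.3 to 127). Log2 fold changes in females were 0.14 ± 0.11 for Tcf7l2, -0.06 ± 0.14 for Rora and 0.23 ± 0.11 for Prox1. In males they were -0.16 ± 0.11, -0.24 ± 0.14 and -0.17 ± 0.12.

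Among the calcium-binding proteins, Necab1, a neuronal EF-hand protein, had the largest fold changes. SIR females ran from 167 to 296 CPM (median 248) and control females from 81.6 to 165 CPM (median 135), with no overlap. SIR males ran from 80.6 to 131 CPM (median 104) and control males from 101.8 to 255 CPM (median 182), with overlap. The log2 fold change was 0.83 ± 0.18 in females and -0.79 ± 0.19 in males, the largest of the 10 genes in both sexes.

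Calb2 (calretinin) was separated in the females: 215 to 292 CPM (median 247) with SIR and 111 to 193 CPM (median 164) in controls. Males overlapped broadly, from 97.4 to 220 CPM (median 194) with SIR and from 159 to 237 CPM (median 213) in controls. Calb1 (calbindin) ran from 138 to 184 CPM (median 161) in SIR females, 120.4 to 149.6 CPM (median 132) in control females, 82.2 to 157 CPM (median 142) in SIR males and 119.8 to 201 CPM (median 162) in control males, with overlap in both sexes. Log2 fold changes for Calb2 were 0.71 ± 0.14 in females and -0.19 ± 0.14 in males, and for Calb1 0.24 ± 0.10 and -0.24 ± 0.11.

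**Figure D2:**
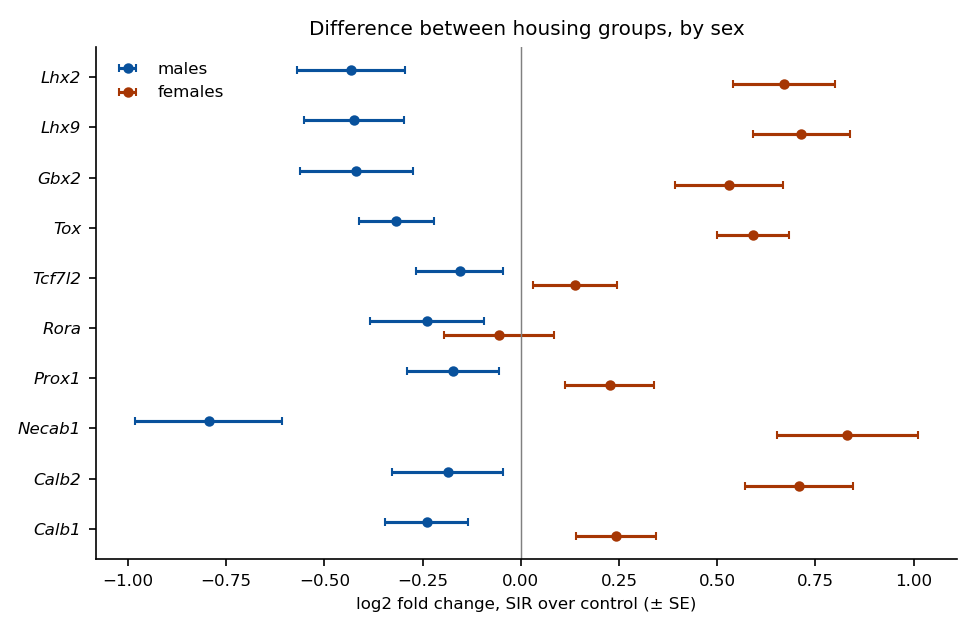
Log2 fold change of SIR over control (horizontal axis, ± SE of the edgeR fit) of the 10 genes in males and in females. All 10 male values lie below 0, from -0.79 for Necab1 to -0.16 for Tcf7l2, and 9 of 10 female values lie above it, with Rora the exception at -0.06.

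Differences between the sexes within 1 housing group were not tested, and ratios of mean CPM are given as a description. Control males had higher mean CPM than control females for Tox (1.46 times), Necab1 (1.39), Calb2 (1.31), Lhx9 (1.31), Gbx2 (1.25), Calb1 (1.19), Lhx2 (1.17) and Tcf7l2 (1.10), while Rora and Prox1 were level (ratios 0.996 and 0.99). For 0 of the 10 were the control ranges apart, against 0.92% of all genes. Among SIR offspring the male to female ratios were 0.450 for Necab1, 0.544 for Lhx2 and 0.594 for Lhx9. The ranges of SIR males and SIR females did not overlap for these 3 genes, against 0.853% of all genes, and also not for Calb2 without the library labelled SIR female 5, against 1.3% of all genes.

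These values chose the genes, so no test is read from them, and counts past the threshold are given only beside the background of all genes. In females 6 of the 10 (Lhx2, Lhx9, Gbx2, Tox, Necab1 and Calb2) had an adjusted p under 0.05 in edgeR's quasi-likelihood test, where 4.62% of all genes did. In males 1 of 10 (Necab1) did, against 1.33% of all genes, and 6 of 10 had an unadjusted p under 0.05, against 17.6% of all genes. The male count changed with the tool: 5 of 10 in DESeq2 (4.07% of all genes), 3 in limma-voom (4.21%), 4 in edgeR with region list scores as covariates (4.29%) and 0 in edgeR with no filter (0.362%). For the difference between the male and female effects the same 6 genes as in females did, against 2.83%, with log2 values from -0.89 for Calb2 to -1.63 for Necab1. With both sexes together 0 of the 10 did in edgeR, against 4.55% of all genes. At an unadjusted p under 0.05 there were 2, Calb2 and Tox, against 22% of all genes (3282 of 14886). DESeq2 called 1 (Calb2), against 7.6% of all genes, and limma-voom 2 (Calb2 and Rora), against 8.4%. The CPM ranges of SIR and control females did not overlap for 4 of the 10 (Lhx9, Calb2, Necab1 and Tox), against 0.652% of all genes, and those of the males for 0 of the 10, against 0.484%. Without the library labelled SIR female 5 the female count of non-overlapping genes was 5, Lhx2 being the added one, against 0.806% of all genes, and the female log2 fold changes of the 6 genes ran from 0.57 to 0.89. Without the 8 libraries with the lowest and highest library numbers, 2 of the 10 (Lhx9 and Tox) were past the threshold in females, against 0.302% of all genes, with a median log2 fold change over the 10 genes of 0.47 in place of 0.56. Necab1 in males lost its adjusted p when any 1 of 9 libraries was left out (SIR males 1, 4, 6 and 15 and control males 16, 19, 21, 22 and 25), with adjusted p up to 0.0916. Gbx2 in females lost it without SIR female 3 or 7 or control female 29 or 31, with adjusted p up to 0.0554.

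Markers of other cells and regions moved along with some of these differences. The gene lists used here and below were chosen with earlier results of these data known. Their adjusted p-values are therefore not those of lists set in advance. Summed over the 9 genes of the oligodendrocyte list, the level ran from 9789 to 11830 CPM in control females, 7344 to 10360 CPM in SIR females, 7138 to 9978 CPM in control males and 8015 to 10300 CPM in SIR males. In edgeR's fit, 3 of these 9 genes fell in SIR females, Mobp and Mbp among them, and 2 rose in SIR males (Mbp and Cnp). Of all genes, 4.62% passed in females and 1.33% in males, in either direction. For the difference between sexes 6 of the 9 passed in edgeR, all positive, against 2.83% of all genes. DESeq2 and limma-voom each called 5 of the 9 in males, against 4.07% and 4.21% of all genes. In females they called 4 and 5, against 972 and 1217 of all 14886 genes. In edgeR the male call of Cnp was lost in 19 of the 31 fits that left out 1 library. Mbp, which encodes myelin basic protein, fell by 0.29 ± 0.07 on the log2 scale in females (adjusted p = 0.0156) and rose by 0.28 ± 0.07 in males (adjusted p = 0.0412), the reverse of the 6 markers. In edgeR the male call of Mbp was lost without any of SIR males 1, 6, 8 and 15 and control males 16, 19, 21, 22 and 25. The midbrain and pretectum list summed to 15.6 to 87.8 CPM in control females and 5.24 to 19.04 CPM in SIR females, and 5 of its 7 tested genes fell in SIR females. Slc6a3, the dopamine transporter gene, ran from 0.293 to 43.1 CPM in control females and from 0.176 to 0.847 CPM in SIR females, with overlap (log2 fold change -4.52 ± 0.929, adjusted p = 0.00655). No gene of either list was at 0 in every library, and the part of these cells and regions in the marker differences was not tested. With the habenula, hypothalamus and reticular list scores as covariates, the median log2 fold change of the 10 genes was 0.58 in females and -0.30 in males, against 0.56 and -0.28 without them. The oligodendrocyte and midbrain list scores were not among these covariates, so that fit cannot show their part.

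Relatives of the 10 genes gave a point of comparison, also on a list chosen with earlier results known. Of 16 paralogs tested, Tox3 alone passed in edgeR, where 1.33% of all genes passed in males and 4.62% in females. In edgeR Tox3 fell by 0.39 ± 0.09 in SIR males (adjusted p = 0.0316) and rose by 0.37 ± 0.09 in SIR females (adjusted p = 0.0179). Its difference between sexes in edgeR was -0.76 ± 0.13 (adjusted p = 0.00123). DESeq2 and limma-voom each called 2 paralogs in females, against 972 and 1217 of all 14886 genes. Each called 1 in males, against 4.07% and 4.21% of all genes. Tox3 ran from 20.1 to 29.98 CPM in SIR females against 15.4 to 22.01 CPM in control females, and from 14.25 to 20.02 CPM in SIR males against 18.9 to 28.2 CPM in control males. The ranges overlapped in both sexes. The male call was lost without any of SIR males 1, 6 and 15 and control males 16, 19, 21, 22 and 25, while the female call and the difference between sexes were kept in all 31 fits that left out 1 library. The median log2 fold change of the paralogs was 0.01 in males and -0.04 in females.

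Of 16 other thalamic transcription factors tested, 1 rose and 1 fell in SIR females in edgeR's fit, where 4.62% of all genes passed. DESeq2 called 2 of the list in females and limma-voom 3, against 972 and 1217 of all 14886 genes. Zic4, a zinc-finger factor, rose by 0.76 ± 0.16 (adjusted p = 0.00593), from a median of 10.9 CPM in control females to 19 CPM in SIR females, and its effect differed between sexes by -1.05 ± 0.23 (adjusted p = 0.00817). Nkx2-2, a homeodomain factor of the border between thalamus and prethalamus, fell by 0.37 ± 0.09 (adjusted p = 0.0196), from a median of 11.99 to 9.65 CPM. The list's median log2 fold change in females was -0.19, against -0.01 for all genes and 0.56 for the 10 markers.

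Of 16 other calcium-binding protein genes, 1 rose and 3 fell in SIR females in edgeR's fit. Of all genes, 4.62% passed there in females and 1.33% in males. DESeq2 and limma-voom each called 5 of the list in females, against 972 and 1217 of all 14886 genes. Ncald, which encodes neurocalcin delta, rose by 0.285 ± 0.0665 (adjusted p = 0.0123). Hpca, which encodes hippocalcin, fell by 1.05 ± 0.19 (adjusted p = 0.00196), with 62.7 to 173 CPM in control females and 36.7 to 72.05 CPM in SIR females. Caln1 fell by 1.35 ± 0.26 (adjusted p = 0.00498), with 42.0 to 171 CPM in control females and 21.6 to 44.9 CPM in SIR females. In SIR males 1 gene passed: S100b, a glial calcium sensor, rose by 0.23 ± 0.06 (adjusted p = 0.0442), a call lost without any of SIR males 1, 6, 8, 13 and 15, control males 16, 19, 21, 22 and 25 and control females 17 and 24. The third to fall, Cabp7 (-1.12 ± 0.265, adjusted p = 0.0150), is named after its value was seen.

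Of the 10 genes of the list for first-order relay nuclei, which carry sensory input to the cortex, 0 passed in edgeR in any of the 4 comparisons, with 1 to 3 at an unadjusted p under 0.05. DESeq2 called 0 in each, and limma-voom 1 in females, 1 with both sexes and 1 for the difference between sexes. Prkcd, a gene of this list, differed by 0.07 ± 0.15 in males and -0.10 ± 0.14 in females. Of the 10 midline and paraventricular genes, 0 passed in edgeR, with up to 2 at an unadjusted p under 0.05, and DESeq2 and limma-voom each called 1 in females. The reticular list (12 genes) had 0 at an unadjusted p under 0.05 and 0 calls by either other tool. The hypothalamus list (11 genes tested) and the choroid plexus list (5) had 0 calls in edgeR, up to 2 and 4 genes at an unadjusted p under 0.05, and up to 1 and 2 calls in DESeq2. Of all 14886 genes, DESeq2 called 972 in females, 606 in males, 1132 with both sexes and 619 for the difference between sexes. Those called by limma-voom were 1217, 626, 1250 and 740 in the same order. Single genes of 3 further lists rose in females in edgeR, where 4.62% of all genes passed in either direction. Gpr151 rose by 1.88 ± 0.523 (adjusted p = 0.0360), 1 of 9 habenula genes tested, with a list median of -0.05. C1ql2 and Tbr1 rose by 1.10 ± 0.281 and 1.05 ± 0.276 (adjusted p = 0.0230 and 0.0248), 2 of 8 genes tested of the cortex and hippocampus list, with 0 that fell but a list median of -0.45. Of those 8 genes, 7 were at an unadjusted p under 0.05, 3 higher and 4 lower. Slc1a3 rose by 0.24 ± 0.0730 (adjusted p = 0.0476), 1 of 6 astrocyte genes, with a list median of 0.02. The calls of Gpr151 and Slc1a3 were lost in 9 and 20 of the 31 fits that left out 1 library.

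After the mean of each group was removed, the 10 genes still varied together from library to library. Of the 45 pairs, 38 had a positive Pearson's r of log2 CPM over the 31 libraries and 18 had an r of at least 0.5. Since the genes were chosen on these correlations and share the same libraries, they are given as a description with no test. Rora and Prox1 were the closest pair (r = 0.77, Spearman's rho = 0.72), followed by Gbx2 with Necab1 (r = 0.75, rho = 0.81), Gbx2 with Lhx9 (r = 0.73), Calb1 with Tox (r = 0.73), Lhx9 with Necab1 (r = 0.72) and Necab1 with Tox (r = 0.72). Calb2 had the lowest values, with an r of -0.69 with Rora and -0.38 with Prox1. Rora and Calb2 kept this sign within the 15 SIR libraries (-0.79) and within the 16 control libraries (-0.58). Some pairs did not keep theirs: Tox with Rora had r = -0.33 in SIR libraries and 0.64 in control libraries, and Calb2 with Tox 0.75 and -0.23. SIR male 14 had the farthest SIR values of all these genes, with Tox at -0.44, Rora at 0.60 and Calb2 at -0.83 in centred log2 CPM. The SIR values of r for these pairs therefore rest in part on that library. In all, 35 of the 45 pairs had the same sign in both housing groups.

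**Figure D3:**
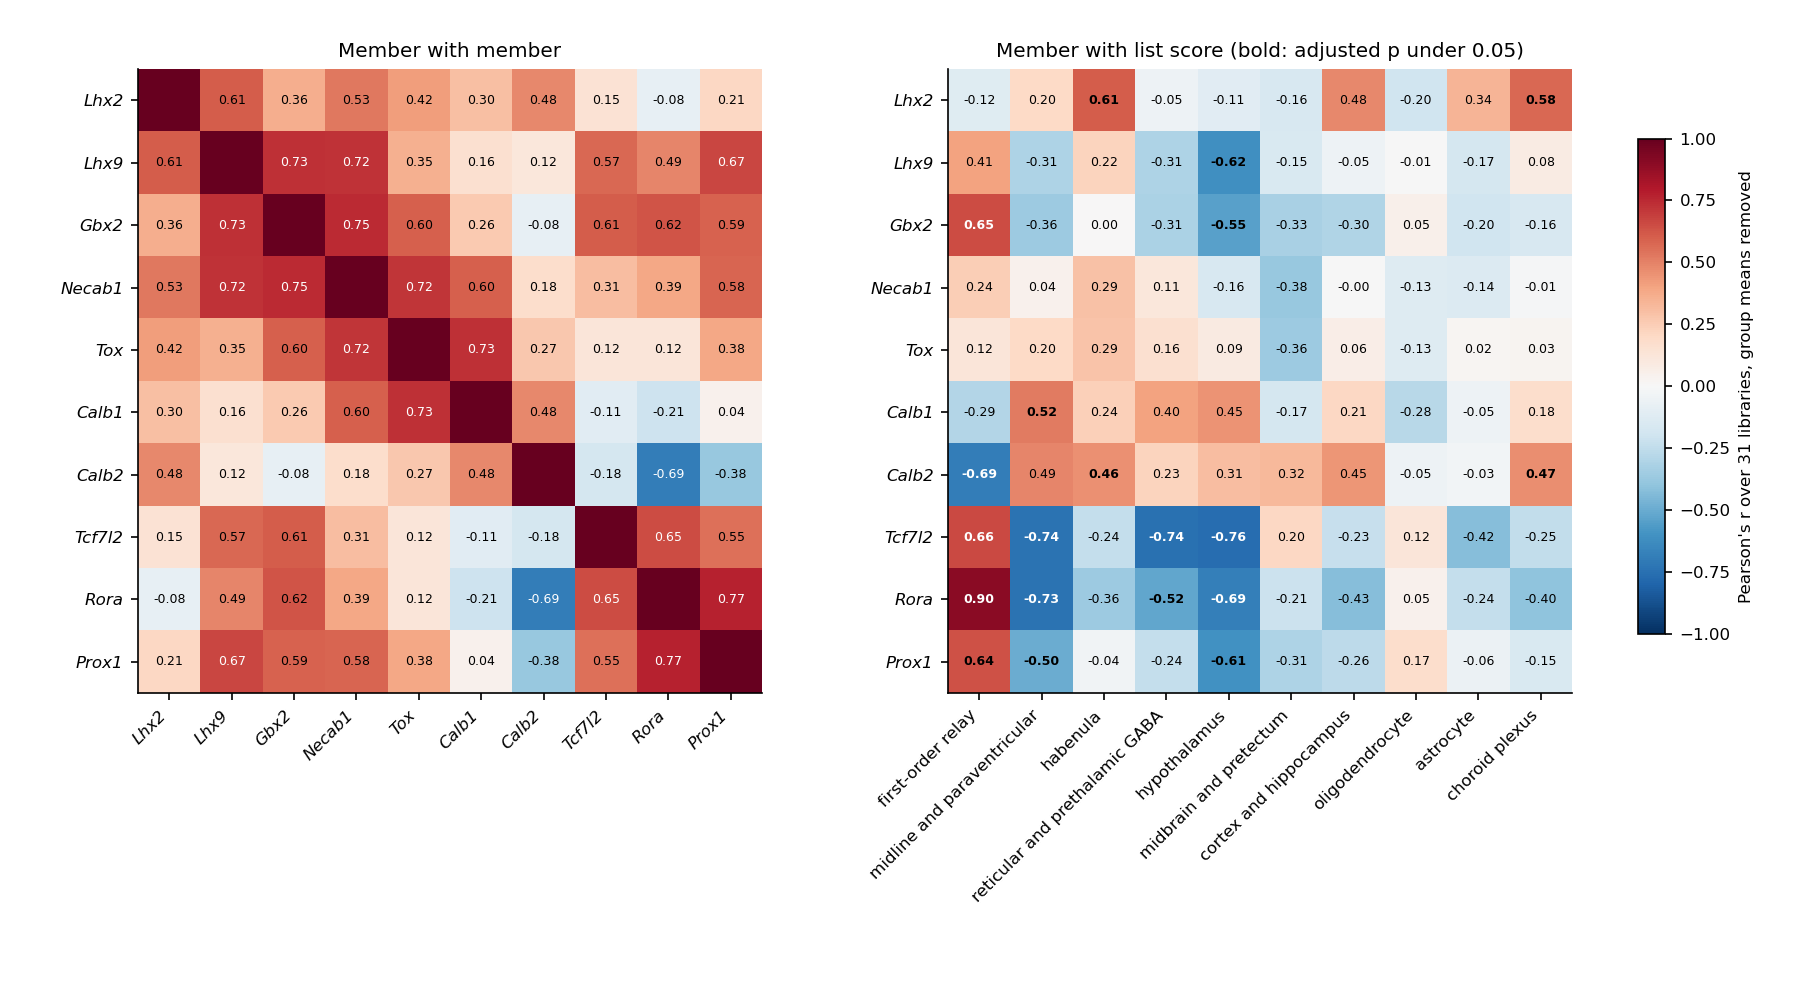
Pearson's r over the 31 libraries with group means removed, between the 10 genes (left, rows and columns) and between the genes and the mean log2 CPM of 10 lists of other genes (right), on a colour scale from -1 (blue) to 1 (red). Tcf7l2, Rora and Prox1 are red with the first-order relay list and blue with the hypothalamus list, and Calb2 is blue with the relay list (-0.69).

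The relation of the markers to lists of other genes was tested over the same 31 libraries. These lists, too, were chosen with earlier results of these data known. Each list's score is the mean centred log2 CPM of its genes, none of which is a marker, and p-values come from 100000 permutations of libraries within groups, two-sided, adjusted over all 100 relations. Of these, 20 passed, 9 positive and 11 negative. They kept their sign in both housing groups and without the 2 libraries farthest from the median of the list score, and 11 of the 20 passed under each of the 4 other settings (no centring, TPM, and without SIR female 5 or the 2 shallowest libraries). The other 9 missed the threshold under at least 1 of them. With no centring these were Gbx2 with the relay and hypothalamus lists (r = 0.41 and -0.31), Lhx9 with the hypothalamus list (-0.29), Lhx2 and Calb2 with the choroid plexus list (0.34 and 0.13) and Prox1 with the midline list (-0.23). On TPM they were Rora with the reticular list (-0.395) and Prox1 with the midline and hypothalamus lists (-0.27 and -0.41), and without the 2 shallowest libraries Calb1 with the midline list (0.46). Within the 15 SIR libraries alone 7 of the 100 passed, and within the 16 control libraries alone 7.

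The first-order relay list rose and fell with Rora (r = 0.90, rho = 0.84, adjusted permutation p = 0.000667, from the smallest raw p that 100000 permutations can give). Without the 2 farthest libraries the r was 0.86, and it was 0.91 within SIR and 0.90 within control libraries. Tcf7l2 (r = 0.66, adjusted permutation p = 0.00593), Gbx2 (0.65, 0.00583) and Prox1 (0.64, 0.00400) also followed this list, while Calb2 ran against it (r = -0.69, rho = -0.65, adjusted permutation p = 0.00400). Calb2 without the 2 farthest libraries had r = -0.60. SIR male 14, the library with the highest summed relay list (5214 CPM), had the lowest Calb2 (97.4 CPM) and the lowest Calb1 (82.2 CPM) of all 31.

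Of the 10 genes, 5 ran against the hypothalamus list, which includes Hcrt, Pmch and Avp: Tcf7l2 (r = -0.76, rho = -0.78, adjusted permutation p = 0.000667), Rora (-0.685, 0.00343), Lhx9 (-0.62, 0.00540), Prox1 (-0.61, 0.00593) and Gbx2 (-0.545, 0.0344). Tcf7l2 and Rora also ran against the midline and paraventricular list (r = -0.74 and -0.735, adjusted permutation p = 0.00100 and 0.00140) and the reticular and prethalamic list of GABA cells around the thalamus (r = -0.745 and -0.52, adjusted permutation p = 0.000667 and 0.0374). Prox1 ran against the midline and paraventricular list with r = -0.497 (adjusted permutation p = 0.0374), and with r = -0.346 without the 2 farthest libraries. The midline and paraventricular list includes Gal, Esr1 and Hcrtr1. Whether its relations repeat those of the hypothalamus list was not tested. The summed hypothalamus list ran from 22.9 to 531 CPM over the SIR males and from 31.5 to 465 CPM over the control females, so that list varied widely within groups. By rank, 3 of these relations had an adjusted permutation p above 0.05: Rora with the hypothalamus list (0.0512), Rora with the reticular list (0.110) and Prox1 with the midline list (0.0853).

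Lhx2 went with the habenula list (r = 0.61, rho = 0.52, adjusted permutation p = 0.00583) and the choroid plexus list (r = 0.58, rho = 0.67, adjusted permutation p = 0.00343). Calb2 went with the same 2 lists (r = 0.46, adjusted permutation p = 0.0206, and r = 0.47, adjusted permutation p = 0.0176). Without the 2 farthest libraries Lhx2 had r = 0.465 with the habenula list and 0.587 with the choroid plexus list, and Calb2 0.449 and 0.595. The habenula and the choroid plexus both border the dorsal and medial thalamus. Calb1 went with the midline and paraventricular list (r = 0.52, adjusted permutation p = 0.0374), but its r was 0.34 without the 2 farthest libraries and the adjusted permutation p of its rho was 0.189. No relation of Necab1 or Tox passed, their largest r being -0.38 and -0.36 with the midbrain and pretectum list. The oligodendrocyte, astrocyte, midbrain and cortex lists gave no relation that passed with any of the 10 genes.

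**Figure D4:**
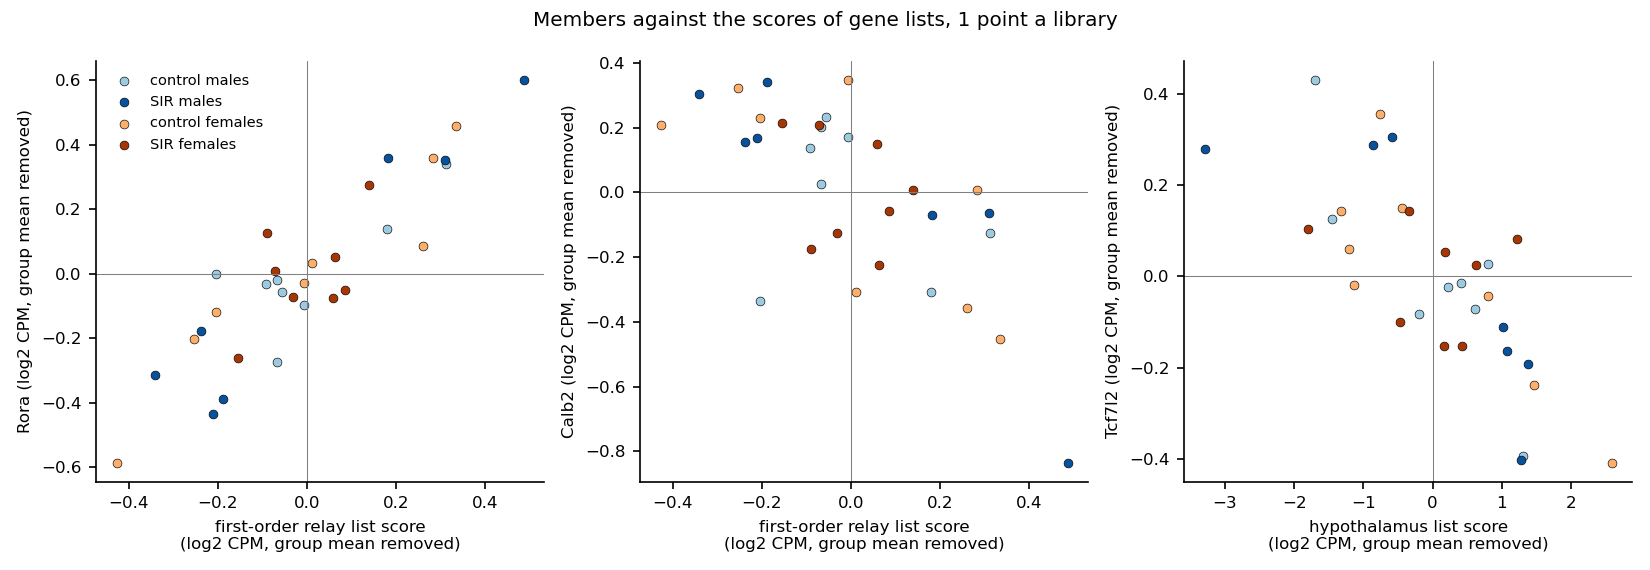
Rora and Calb2 against the first-order relay score and Tcf7l2 against the hypothalamus score, in log2 CPM with group means removed, 1 point a library coloured by group. Rora rises along the relay score (r = 0.90) while Calb2 falls (r = -0.69) and Tcf7l2 falls along the hypothalamus score (r = -0.76), with libraries of all 4 groups along each trend.

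The genes whose rank pattern over the 31 libraries was most like each marker are given next, with group means removed. For Rora they were Ildr2 (rho = 0.94), the myosin gene Myo5a (0.94) and Plekhg1 (0.93). For Gbx2 they were Cpne7 (0.93), Stum (0.90) and Grm2 (0.88), the last of which encodes a presynaptic glutamate receptor and also ranked among the nearest for Lhx9 (0.82) and Necab1 (0.86). Tox was closest to Snx31 (0.91), Aacs (0.83) and Maob (0.80), and Necab1 to Sntb1 (0.88), Maob (0.87) and Grm2. Lhx9 was closest to Fam210b (0.86) and Oxr1 (0.84), and Lhx2 to Camkv (0.82), St6galnac5 (0.81) and Fbln1 (0.71). Tcf7l2 was closest to Epb41l3 (0.87), Hlf (0.86) and Ppp1r7 (0.86), and Prox1 to the potassium channel gene Kcnd2 (0.88) and to Bhlhe40 (0.86). Calb2 was closest to Cacng3 (0.83), Scn3b (0.77) and Rac3 (0.77). Calb1 had the loosest neighbours, Chst9 (0.70), Ncald (0.68) and Ywhab (0.66).

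The split of each gene's counts among its transcripts was a measure that had not chosen the genes. Calb2, Necab1 and Tox were nearly of 1 transcript: the main one held on average 98.5%, 99.2% and 98.7% of the counts. Rora-201 held 95.1%, Calb1-201 92.9% and Prox1-202 91.04%. Gbx2 was divided between the coding Gbx2-201 (62.7% ± 5.62, SD, n = 31) and Gbx2-202, annotated as a retained intron (37.3%). Lhx2 was divided between Lhx2-201 (61.7% ± 7.04) from the downstream start and Lhx2-203 (36.5% ± 7.36) from the upstream one, and Lhx2-203 had means of 36.4% in SIR females, 35.7% in control females, 36.9% in SIR males and 37.3% in control males.

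Lhx9 was the least settled. Lhx9-203 ran from near 0 to 80.1% and Lhx9-205 from 0 to 67.2% of the counts, with SDs of 20.5 and 20.4 percentage points over the 31 libraries, while Lhx9-202 held 11.9% ± 3.54. Lhx9 had 228 to 1002 estimated counts a library in all. Group means of Lhx9-203 ran from 37.2% to 48.0%, with SDs within groups of 16.9 to 24.2 percentage points. Tcf7l2 had the most transcripts, led by Tcf7l2-209 (36.2% ± 6.03), Tcf7l2-203 (27.2% ± 4.04), which starts at the downstream site, and Tcf7l2-215 (12.5% ± 2.26).

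**Figure D5:**
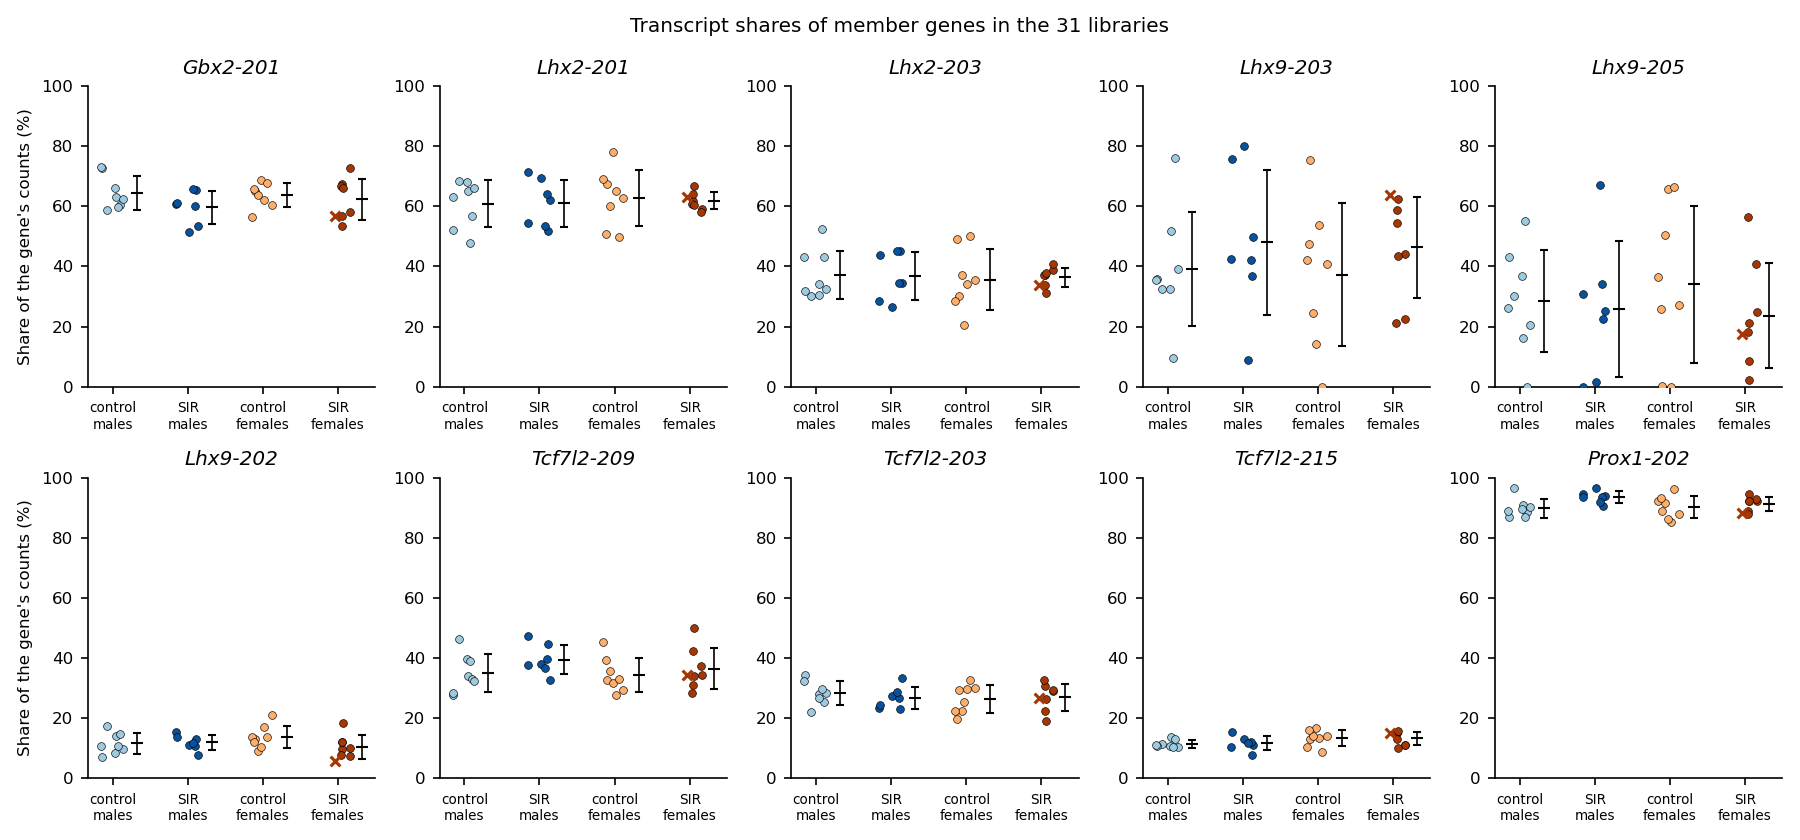
Share of a gene's estimated counts held by its main transcripts (vertical axis, 0 to 100%) for Gbx2, Lhx2, Lhx9, Tcf7l2 and Prox1 in 10 panels, 1 point a library with group mean ± SD; the cross is the library labelled SIR female 5. Group means of Lhx2-203 lie between 35.7% and 37.3%, and Lhx9-203 runs from near 0 to 80.1%.

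In edgeR's test of differential transcript use, 1 of the 10 genes passed, Tcf7l2 in males (adjusted p = 0.00258), where 1.36% of all 9985 genes tested did. In females 0 of the 10 passed, against 0.731% of genes, and with both sexes together 0 of the 10, against 1.55%. At an unadjusted p under 0.05, Tcf7l2 and Rora in males and Tcf7l2 with both sexes together were found, and none in females; limma's diffSplice called 0 of the 10 in each of the 3 comparisons. The Tcf7l2 call came from minor transcripts, named here after their values were seen. Tcf7l2-213 and Tcf7l2-206 held on average 0.199% and 0.1025% of the counts and rounded to 0 counts in 21 and 16 of the 31 libraries. Tcf7l2-206 reached at most 35.8 counts in SIR males and 2.32 counts in control males. Both rounded to 0 in 7 of 8 control males. The call was lost when only transcripts with at least 5% of their gene's counts were kept (adjusted p = 1) and with limma's diffSplice (adjusted p = 0.21). Rora-202 held 2.80% ± 0.95 of Rora's counts in SIR males and 4.86% ± 1.57 in control males, with an adjusted p of 0.54 for the gene.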

How the data were processed

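Polyadenylated RNA of the thalamus from 31 mice was sequenced from a stranded mRNA library preparation, per the labels' protocols. The authors quantified transcripts with kallisto and checked reads with FastQC against the build GRCm39, per the submitters' processing notes, whose version numbers are not given in the sources used here. Per the file headers, the deposited tables hold estimated counts, TPM and effective lengths per transcript, 1 file a library. Of 105878 transcripts, 104949 (99.12%) matched a gene name, and the unmatched ones held 0.69% to 0.76% of counts. Whether strand was used in the quantification is not stated by those notes.

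For gene-level values, a gene's transcripts were added up and the estimated counts rounded. Genes were filtered with filterByExpr, scaled by TMM and fitted over all 31 libraries with a mean per group in edgeR 4.0.16 (R 4.3.3), using the quasi-likelihood test and Benjamini-Hochberg adjustment over 14886 genes. CPM are TMM-scaled, and log2 CPM has a prior count of 2. The common biological coefficient of variation was 0.13. Transcript use was tested with edgeR's diffSpliceDGE and Simes p-values. Member genes and region lists were related by permutation in Python 3.11.15, after group means were removed. The fits and the permutation test were checked on simulated data.

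The 10 genes and the 13 gene lists were chosen with earlier results of these data known. Some genes are on more than 1 list (Lef1, Rorb, Pvalb, Necab2 and Necab3). Named genes were the 10 markers, up to 4 genes of each list by smallest p among those past the threshold (or the 2 most abundant), the 3 genes most like each marker with a mean of at least 1 CPM, and transcripts with at least 10% of a gene's counts. A few genes that this rule names are not reported here. Alternatives were RLE and upper-quartile scaling, no filter, length offsets, DESeq2 1.42.0, limma-voom and limma-trend on log2(TPM + 1) (limma 3.58.1), region scores as covariates, and leaving out libraries. Correlations within each housing group, the CG count and the promoter motifs were added after seeing the data. Gene starts come from GRCm38, and no coordinate was converted between builds. No 2 libraries of a group agreed within sampling noise.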

Additional observations from a re-analysis of the deposited data

Results flagged for a closer look

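Single libraries stood far from their group for 3 of the 40 sets of a marker in a group, where chance gives about 1 in 20: Lhx2 at 17.71 CPM in control male 22, and Calb1 at 82.17 CPM and Tox at 24.99 CPM in SIR male 14. Control male 22 also had the highest summed habenula list of all libraries (95.4 CPM). SIR male 14 had the highest summed first-order relay list (5214 CPM) and the lowest summed hypothalamus list (22.9 CPM). The part of the tissue sampled in these values was not tested.

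The interaction of SIR with sex had an adjusted p under 0.05 in edgeR for 6 of the 10 markers, against 2.83% of all genes, with male minus female log2 values of -1.63 for Necab1, -1.14 for Lhx9, -1.10 for Lhx2, -0.95 for Gbx2, -0.91 for Tox and -0.89 for Calb2. These genes were chosen with this pattern known, so the values are a description and no difference is read from the test.

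Among genes of the lists, the edgeR interaction term passed for Zic4 (-1.05), Tox3 (-0.76) and Ncald (-0.40), in the direction of the 6 markers. It passed in the other direction for Hpca (1.24), S100b (0.41), the midbrain gene Foxa1 (3.45), and the myelin genes Mbp (0.57), Mobp (0.54), Mog (0.43) and Cnp (0.40). The Foxa1 call held in 15 of the 31 fits that left out 1 library.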

How the results depend on the processing

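Over 41 alternatives, the log2 fold changes of the 10 markers kept their sign in 410 of 410 values in males, 410 of 410 for the difference between sexes, 408 of 410 in females (Rora, at -0.13 to 0.08, made the exceptions) and 362 of 410 with both sexes together. The markers were chosen on values of these same libraries, and 31 of the alternatives leave out 1 library each. A kept sign is therefore no independent support. No paired analysis was possible because the replicate numbers 1 to 31 are each used once and no number is shared between groups.

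Counts of all genes past the threshold moved more. With both sexes together, 677 genes became 382 with no filter, 1258 with region scores as covariates, 308 without the library labelled SIR female 5, 392 without the 2 shallowest libraries, 1250 with limma-voom, 312 with limma-trend on TPM and 1132 with DESeq2. Without the 8 libraries with the lowest and highest numbers edgeR called 0, with 2031 at an unadjusted p under 0.05. In males, 198 became 79 with no filter, 638 with region scores, 379 without the 2 shallowest, 542 without the 8 libraries, 626 with limma-voom, 93 with TPM and 606 with DESeq2. In females, 688 became 457 without the 2 shallowest, 45 without the 8 libraries, 1217 with limma-voom and 270 with TPM. For the difference between sexes, 422 became 277 with length offsets, 740 with limma-voom and 223 with TPM. The causes were not tested.

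Leaving out 1 library gave 224 to 1042 genes with both sexes, 0 (control male 22) to 506 (control male 27) in males, 360 to 829 in females and 285 to 532 for the difference. The counts moved by over 1.5 times without SIR males 1 (308), 6 (390) or 15 (269), SIR females 3 (299), 5 (308) or 12 (434), control males 19 (387), 21 (346), 22 (407) or 25 (224), or control females 20 (1042), 29 (312), 30 (284) or 31 (415) with both sexes. In males this held without SIR males 1 (50), 6 (23) or 15 (17), control males 19 (93), 21 (38), 22 (0), 25 (26), 27 (506) or 28 (314), or control female 31 (325), and in females without SIR female 3 (360) or 7 (381) or control female 29 (365) or 31 (428). The count of 0 in males is edgeR's, with 2192 at an unadjusted p under 0.05. Upper-quartile scaling moved the split of higher to lower calls from 261 and 416 to 446 and 306 with both sexes, from 42 and 156 to 110 and 94 in males, and from 161 and 261 to 219 and 225 for the difference; the DESeq2 split in males was 211 and 395.

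For transcript use, 155 genes with both sexes became 374 with limma's diffSplice and 8 with transcripts of at least 5%, 136 in males became 260 and 12, and 73 in females became 3 with transcripts of at least 5%. Leaving out 1 library gave 123 to 215, 114 to 213 and 62 to 94 genes. Of 100 relations with lists, 20 passed, against 7 in SIR libraries alone and 7 in control libraries alone, which hold fewer samples.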
